A study of Mus musculus with 3 samples.

Results

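Malat1, Neat1, Kcnq1ot1 and Gm37376 are 4 of the 55536 genes with an Ensembl identifier in the GENCODE M21 gene tables. Malat1, Neat1 and Kcnq1ot1 are long noncoding RNAs that stay in the nucleus, and Gm37376 is an annotated transcript inside Malat1 on the opposite strand. The genes were matched by symbol, with all 10 of their annotated transcripts. Malat1 and Gm37376 were chosen by their mean TPM, the deposited level relative to all transcripts of a library, and Neat1 and Kcnq1ot1 with theirs known. The levels are therefore a description, with no test, and the place of the RNAs in the cell was not measured. RNA selected for poly(A) was sequenced from primary effector memory CD4 T cells of 1 male mouse of strain B6.SJL-Ptprca Pepcb/BoyJ aged 5 months, a line that carries the Ptprca allele of CD45. These are helper T cells that have met antigen and patrol tissues. The labels number 3 libraries as technical replicates 1, 2 and 3 of 1 biosample. No other group or treatment was analysed here, so an SD or a test below measures the spread between libraries, which may be technical, and nothing about animals.

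Malat1 RNA gathers in nuclear speckles, bodies rich in splicing factors. It is very abundant in most mammalian cells. Neat1 RNA is the scaffold of paraspeckles, nuclear bodies that hold RNA-binding proteins, and comes as a short polyadenylated form and a long form that builds the body. The ends of Malat1 and of the long Neat1 form are cut by RNase P in front of a tRNA-like RNA, and the A-rich tract left at the end is encoded in the gene rather than added as a tail. Kcnq1ot1 is transcribed from the paternal allele, antisense to Kcnq1, and silences neighbouring genes of its imprinted domain in cis. Malat1 and Neat1 are neighbours on chromosome 19.

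The transcript ends show which of these RNAs carries the usual poly(A) signal AATAAA, and are printed because the libraries were selected for poly(A). All sequences are from GENCODE M21 transcripts on GRCm38, 5′ to 3′. Capitals mark AATAAA, or the A-rich tract with the GCAAAA that follows it. The first line covers chr19:5795928-5796059 on the minus strand, and the other lines are the last 50 bases of each transcript.
Malat1-201 around its A tract: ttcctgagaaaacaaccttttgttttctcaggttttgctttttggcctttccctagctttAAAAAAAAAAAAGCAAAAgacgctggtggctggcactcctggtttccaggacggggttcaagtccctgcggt
Malat1-201 end: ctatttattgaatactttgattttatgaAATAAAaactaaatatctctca
Neat1-201 end: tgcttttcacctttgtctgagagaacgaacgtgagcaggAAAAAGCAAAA
Neat1-202 end: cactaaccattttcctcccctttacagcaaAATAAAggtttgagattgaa
Kcnq1ot1-201 end: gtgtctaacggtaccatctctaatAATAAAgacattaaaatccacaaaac
Gm37376-201 end: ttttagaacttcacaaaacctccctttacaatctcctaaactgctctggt

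The annotated Malat1-201 does not stop at the A tract. Its run of 12 A begins at base 6674 and is followed directly by GCAAAA, and 292 further bases lead to an end with AATAAA. Neat1-201, the long form, ends on the same GCAAAA and has no AATAAA in its last 50 bases. Neat1-202, the short form, and Kcnq1ot1-201 have AATAAA there, and Gm37376-201 and Malat1-203 do not. In the whole annotation 26.6% of 141767 transcripts hold AATAAA in their last 50 bases. The motif AAAAAGCAAAA, searched on the transcript strand only, is in the last 400 bases of 152 transcripts, or 0.107%, and Malat1-201 and Neat1-201 are among them. A match is a description of the letters and not evidence of processing. The motif was set from the known processed ends, so the matches of Malat1-201 and Neat1-201 are not a test.

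Within Malat1, nearly all of the TPM was assigned to Malat1-203, a short transcript near the 5′ end that Gm37376 overlaps in part. Malat1 (ENSMUSG00000092341.3, lincRNA) lies at chr19:5795690-5802672 on the minus strand, and Malat1-201 is 1 exon over all 6983 bases. Malat1-203 has 2 exons that together hold 485 bases, at chr19:5802238-5802671 and chr19:5801916-5801966. Gm37376 (ENSMUSG00000102349.1, biotype TEC, which means that an experiment is still to be done on it) has 1 exon of 453 bases at chr19:5801941-5802393 on the plus strand. All 453 bases lie inside Malat1-201, and 182 of them are also exon of Malat1-203. The larger shared stretch, chr19:5802238-5802393, is shown as read in Malat1-203, because reads from it fit both genes unless the strand is used. The second line shows the Malat1-203 splice junction, with the first bases of exon 2 in capitals.
Malat1-203 stretch within Gm37376: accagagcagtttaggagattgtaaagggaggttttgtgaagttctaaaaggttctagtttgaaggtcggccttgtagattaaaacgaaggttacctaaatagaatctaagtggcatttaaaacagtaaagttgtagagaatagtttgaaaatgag
Malat1-203 junction: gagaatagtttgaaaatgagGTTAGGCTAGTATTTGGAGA

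A second stretch of Gm37376 is not particular to the locus. Of its 404 windows of 50 bases, 83 also occur, on either strand, in transcripts of 714 genes other than Malat1, and the most widely shared window is in 251 of them. These windows lie at chr19:5801968-5802099, within the intron of Malat1-203. No window of Malat1-203 was found in a gene other than Gm37376, which holds 109 of its 436 windows. The stretch is printed on the plus strand with the most widely shared window in capitals.
Gm37376 stretch shared with other genes: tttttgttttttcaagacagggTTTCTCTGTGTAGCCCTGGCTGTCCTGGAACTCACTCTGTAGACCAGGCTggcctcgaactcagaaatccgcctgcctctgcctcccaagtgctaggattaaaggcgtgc

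Malat1 was deposited at a TPM of 9876, 4585 and 4829 in libraries 1, 2 and 3, a mean of 6430 ± 2987 (SD, n = 3). Library 1 was the highest, at 2.10 times the mean of the other two, which were close to each other. By TPM, Malat1 ranked 6 in library 1, 11 in library 2 and 13 in library 3 among all genes. Gm37376 stood higher still, at a TPM of 12676, 6223 and 6491 in libraries 1, 2 and 3, a mean of 8463 ± 3651 (SD, n = 3). It ranked 2, 6 and 6 among all genes and was the highest of 13374 long noncoding genes in each library, with Malat1 next. Counted as long noncoding are the biotypes lincRNA, antisense and TEC and the smaller classes of processed, sense-intronic, sense-overlapping, bidirectional-promoter, 3′-overlapping and macro noncoding transcripts. The pair made up 65.0% of the summed TPM of long noncoding genes in library 1, 37.0% in library 2 and 37.8% in library 3. Neat1 made up 0.541%, 1.51% and 1.26%.

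**Figure D1:**
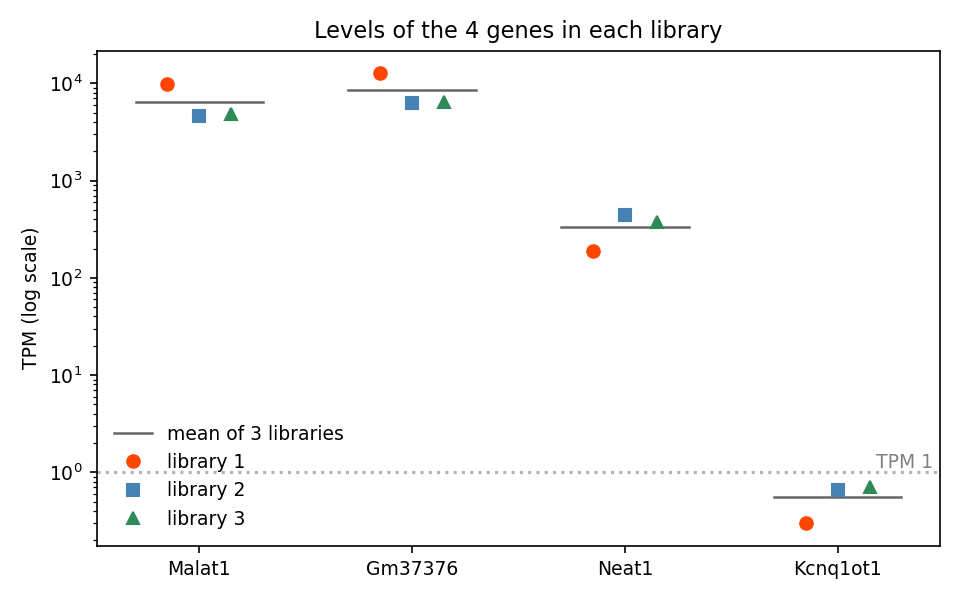
TPM of the 4 genes on a log axis, with 1 point per library and a grey line at the mean of the 3 libraries. Library 1 is the highest for Malat1 and Gm37376 and the lowest for Neat1 and Kcnq1ot1, and Kcnq1ot1 lies below a TPM of 1 in every library.

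The level of Malat1 depends on which transcript is read. Malat1-203 had a TPM of 9725, 4503 and 4721 in libraries 1, 2 and 3 and held 98.1 ± 0.365% (SD, n = 3) of the gene's TPM. Malat1-201, the transcript that spans the whole gene, had a TPM of only 151, 81.7 and 109. In expected counts, which are reads shared out among the transcripts they match, Malat1-203 held 77.0 ± 3.51% (SD, n = 3) of the gene and Malat1-201 held 23.0 ± 3.51% (SD, n = 3). The counts of Malat1-203 were 45572, 17420 and 21318, and those of Malat1-201 were 11278, 5025 and 7795. Malat1-202 was listed at 0 counts in all 3 libraries, and Malat1-204 had at most 1.75 counts.

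Per base the contrast was larger. Expected counts per effective base, the number of positions at which a read can start, were 1.63, 0.725 and 1.12 for Malat1-201 in libraries 1, 2 and 3. They were 105, 40.0 and 48.9 for Malat1-203 and 136, 55.2 and 67.2 for Gm37376. Malat1-203 was thus 64.3, 55.1 and 43.5 times as dense as Malat1-201, and Gm37376 83.8, 76.2 and 59.8 times as dense. Every exon base of Malat1-203 is also exon of Malat1-201. Reads that lie within a single exon of Malat1-203 fit both transcripts, so their division is an estimate. The window that holds Malat1-203 and Gm37376 is 756 bases, or 10.8% of the Malat1 span, and received 89.9%, 88.8% and 86.1% of the counts assigned to the locus through these transcripts.

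**Figure D2:**
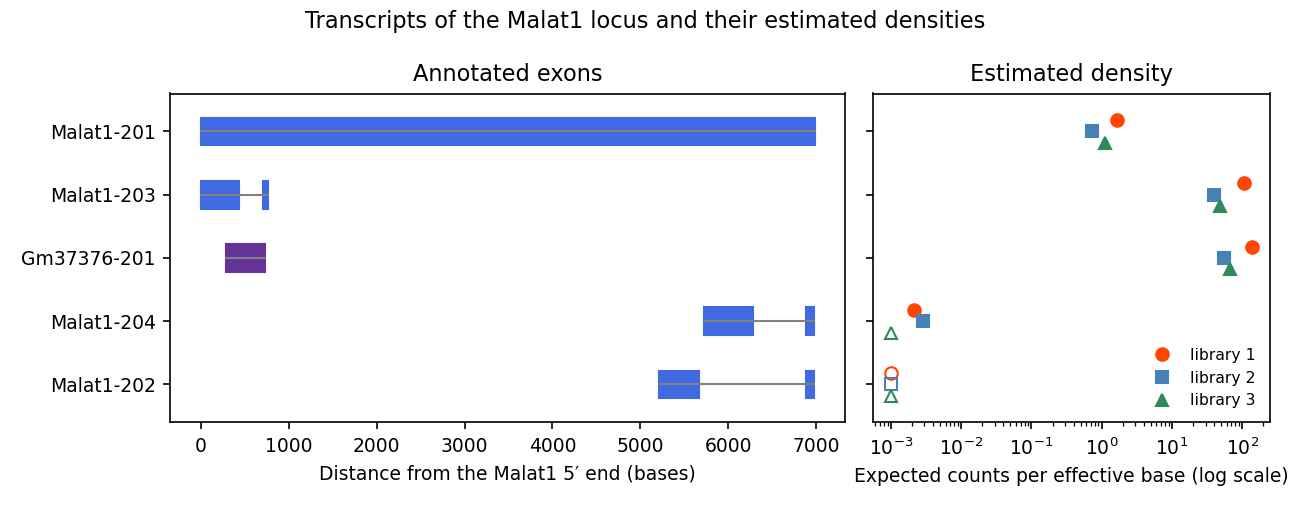
Left, annotated exons of the Malat1 transcripts (blue) and of Gm37376 on the opposite strand (purple), by distance in bases from the Malat1 5′ end. Right, expected counts per effective base on a log axis, 1 point per library, with open points at the left edge for transcripts listed at 0; Malat1-203 and Gm37376 lie between 40.0 and 136, against 0.725 to 1.63 for Malat1-201.

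The division between Malat1 and Gm37376 is uncertain. Gm37376 took 49.2%, 49.8% and 48.3% of the counts of the locus in libraries 1, 2 and 3, with 55040, 22308 and 27160 expected counts against 56851, 22446 and 29112 for Malat1. The deposited posterior SD of the count was 91.15, 58.21 and 65.73 for Malat1 and 91.16, 58.20 and 65.73 for Gm37376, so that both genes had nearly the same SD in each library. No source used here gives the strand setting, and without it reads of the 2 genes cannot be told apart where they overlap. Counting both genes together avoids the division. The combined count still holds any reads assigned to Gm37376 or Malat1-201 through stretches shared with other genes, and their number was not tested. Of the 6934 windows of 50 bases of Malat1-201, 120 also occur in transcripts of 715 genes other than Gm37376. The locus then held 0.640% of the counts in library 1 (95% Wilson interval 0.637 to 0.644), 0.292% in library 2 (0.290 to 0.295) and 0.333% in library 3 (0.331 to 0.336). Library 1 was again the highest, at 2.05 times the mean of the other two, and the intervals, which cover counting error only, did not overlap.

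**Figure D3:**
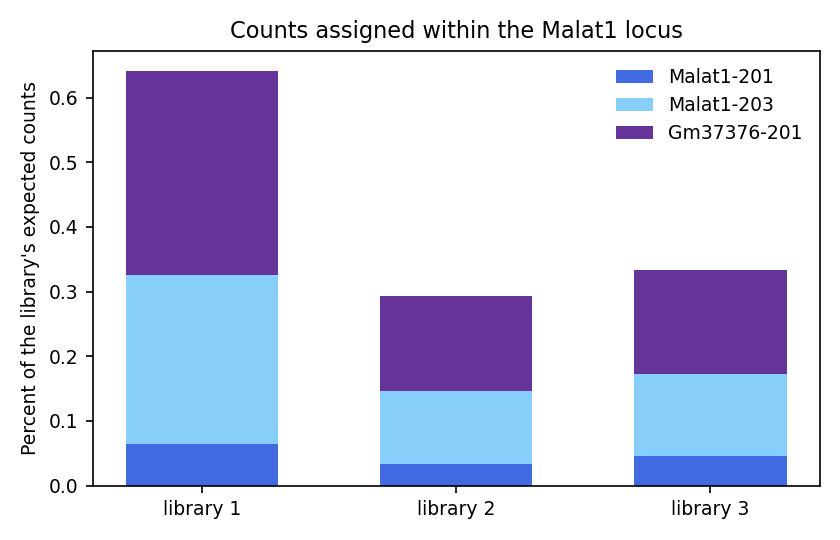
Expected counts assigned to Malat1-201, Malat1-203 and Gm37376-201 as a percent of each library's total, stacked from 0. The stacks reach 0.640% in library 1, 0.292% in library 2 and 0.333% in library 3, and Gm37376-201 and Malat1-203 make up most of each.

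Spread over the effective length of Malat1-201 on the deposited TPM scale, the combined counts gave 1501, 727 and 784 in libraries 1, 2 and 3, a mean of 1004 ± 432 (SD, n = 3). The locus would then rank 61, 194 and 173 by TPM. The deposited Malat1 value was 6.58, 6.30 and 6.16 times as high. Which value is closer to the RNA in the cells was not tested. By counts alone, which no length enters, the combined locus ranked 6, 20 and 13 among all genes.

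Nearly all of the Neat1 TPM was assigned to its short form. Neat1 (ENSMUSG00000092274.3, lincRNA) lies at chr19:5824708-5845478 on the minus strand, 22035 bases from Malat1. Its TPM was 188, 440 and 377 in libraries 1, 2 and 3, a mean of 335 ± 131 (SD, n = 3), from 6457, 12711 and 12701 expected counts. Here library 1 was the lowest, and the mean of libraries 2 and 3 was 2.18 times its value. Neat1 ranked 1024, 359 and 420 by TPM among all genes and 11, 7 and 7 among long noncoding genes.

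Neat1-202, the short form of 3004 bases at chr19:5842307-5845476, had a TPM of 183, 425 and 365 in libraries 1, 2 and 3 and held 96.9 ± 0.464% (SD, n = 3) of the gene's TPM. Neat1-201, the long form of 20771 bases, had a TPM of 2.83, 8.22 and 6.85. Every exon base of Neat1-202 is also exon of Neat1-201. Reads that lie within a single exon of Neat1-202 fit both transcripts, so their division is an estimate. By counts the long form held 9.77% (95% Wilson interval 9.07 to 10.5) in library 1, 11.9% (11.3 to 12.5) in library 2 and 11.6% (11.0 to 12.1) in library 3. These intervals cover counting error only and leave out the error of that division. The ratio of short to long form in TPM was 64.6, 51.7 and 53.3, highest in library 1. As printed above, the short form ends behind AATAAA and the long form on its A tract, and the part of the poly(A) selection in these shares was not tested. Neat1-203, whose exons all lie within those of the short form, had a TPM of 2.09, 7.37 and 5.18, and Neat1-204, in the far part of the long form, was listed at 0 in every library.

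**Figure D4:**
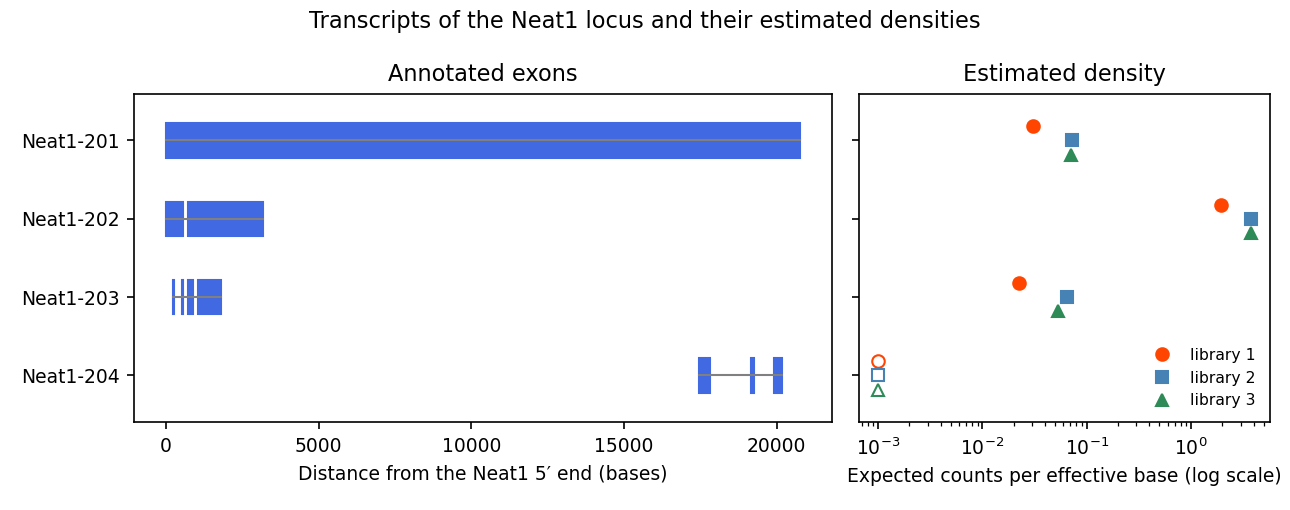
Left, annotated exons of the 4 Neat1 transcripts by distance in bases from the Neat1 5′ end. Right, expected counts per effective base on a log axis, 1 point per library, with open points at the left edge for transcripts listed at 0; Neat1-202 lies at 1.96 to 3.78 and Neat1-201 at 0.0305 to 0.0729, with library 1 the lowest for Neat1-201, Neat1-202 and Neat1-203.

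A small annotated RNA inside Neat1 was listed with counts. Gm28006, a misc_RNA of 122 bases on the same strand at chr19:5844916-5845037, had a TPM of 49.9, 147 and 96.4, from 39.2, 95.4 and 72.9 expected counts in libraries 1, 2 and 3. All of its bases are exon of Neat1-201 and 113 are exon of Neat1-202, so its reads and those of Neat1 cannot be told apart. Gm27533 and Gm27505, also inside Neat1, and Gm27694, inside Malat1, were listed at 0 in every library.

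The ratio of Malat1 to Neat1 differed between the libraries more than either gene alone. In TPM it was 52.6 in library 1, 10.4 in library 2 and 12.8 in library 3. In expected counts it was 8.80, 1.77 and 2.29. Library 1 was at 4.53 times the mean of the other two by TPM and at 4.34 times by counts. With the locus counted as a whole and spread over Malat1-201, the ratio was 8.00, 1.65 and 2.08. Between Malat1-201 and Neat1-202, the leading full-length and short forms, it was 0.828, 0.192 and 0.297, so that Malat1 lay below Neat1. The order of the 2 genes therefore turned on the transcript read, while library 1 stood highest in all 4 versions.

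Kcnq1ot1 was low in all 3 libraries. Kcnq1ot1 (ENSMUSG00000101609.2, biotype antisense) is annotated as 1 exon of 93092 bases at chr7:143203458-143296549 on the minus strand. It had a TPM of 0.30, 0.66 and 0.70 in libraries 1, 2 and 3, below 1 in each, from 295, 543 and 675 expected counts. The mean of libraries 2 and 3 was 2.27 times the value of library 1. Because the transcript is so long, these counts came to 0.00317, 0.00584 and 0.00726 per effective base. Of its windows of 50 bases 1.72% also occur in transcripts of other genes, up to 409 genes for 1 window, and its longest run of A is 41 bases, beginning at base 69565. Kcnq1, the potassium channel gene on the opposite strand, was listed at 0 in every library. Of 4 misc_RNA genes inside Kcnq1ot1 on the opposite strand, Gm27389 and Gm27803 were listed at 0, Gm27395 had at most 0.57 counts and Gm27539 had 1.82, 5.58 and 3.52 counts.

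The order of deposited gene TPM was Gm37376, Malat1, Neat1 and Kcnq1ot1 in each library. It is a description, because Malat1 and Gm37376 were chosen by their mean TPM. The ranges of Gm37376 and Malat1 overlapped over the 3 libraries, and those of Neat1 and Kcnq1ot1 overlapped with no other member. Malat1-201 alone, at a TPM of 151, 81.7 and 109 in libraries 1, 2 and 3, lay below Neat1, at 188, 440 and 377.

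Library 1 differed from libraries 2 and 3 in general, and the members' differences stand beside that. Rounded counts on genes came to 17474991, 15303615 and 16882311 in libraries 1, 2 and 3. Mitochondrial genes held 0.781% of the counts in library 1 against 1.76% and 2.00%, ribosomal protein genes 0.880% against 1.89% and 2.40%, and retained-intron transcripts 7.56% against 9.20% and 9.15%. All 6 T cell markers (summed TPM 8742 to 13279) and all 3 CD4 lineage markers (631 to 1150) reached a TPM of 1 in every library, the first sum highest and the second lowest in library 1. Of the other cells' markers, CD8 lineage genes reached it in 1 of 2 (summed TPM 5.65 to 10.8), NK cell in 2 of 3 (71.9 to 80.9, mostly Klrk1) and myeloid in 2 of 5 (70.4 to 116, mostly Cst3). In the CD8 list Cd8a stayed at or below a TPM of 0.08, while Cd8b1 had 5.65, 8.10 and 10.8 in libraries 1, 2 and 3. In the NK cell list Ncr1 stayed at or below 0.07, while Klrb1c had 9.27, 9.03 and 7.74. The part of any of these in the members' values was not tested.

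All 4 members varied between the libraries by a chi-square test of homogeneity of the rounded counts with Benjamini-Hochberg adjustment over 13177 genes, but so did 75.8% of all tested genes. Malat1 and Gm37376 passed with their highest share of counts in library 1, and 32.9% of tested genes passed in that direction. Neat1 and Kcnq1ot1 passed with their lowest share there, and 40.2% of tested genes did so. These shares, 75.8% in all, are the background for each list count below. The chi-square was 14393 for Malat1, 14084 for Gm37376, 3190 for Neat1 and 169 for Kcnq1ot1, whose adjusted p was 1.06e-36, while the other three were below the smallest number stored. The test sets 3 libraries against counting error and compares no conditions. When each chi-square was divided by the median overdispersion of all genes, 19.9, 21.6% of genes passed, among them Malat1 (adjusted p = 1.05e-154), Gm37376 (2.33e-151) and Neat1 (1.37e-33), and Kcnq1ot1 did not (adjusted p = 0.0652).

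Libraries 2 and 3 resembled each other more closely. Between them alone 16.7% of 12468 tested genes varied by the same test. Malat1 (adjusted p = 1.57e-71), Gm37376 (1.15e-25) and Neat1 (1.73e-13) were among these. The test compares shares of the counts, which in libraries 2 and 3 were 0.147% and 0.172% for Malat1. They were 0.146% and 0.161% for Gm37376 and 0.0831% and 0.0752% for Neat1. In TPM, which was not tested, Malat1 was 1.05 times and Gm37376 1.04 times as high in library 3 as in library 2. Neat1 was 1.17 times as high in TPM in library 2 as in library 3. Kcnq1ot1 did not pass (adjusted p = 0.147), with 0.00355% and 0.00400% of the counts in libraries 2 and 3. Its TPM was 1.06 times as high in library 3.

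On the scale of log2(TPM + 1), which understates changes of low genes, library 1 minus the mean of libraries 2 and 3 was 1.07 for Malat1, 1.00 for Gm37376, -1.11 for Neat1 and -0.37 for Kcnq1ot1. Over 11694 genes with a TPM of at least 1 in every library the median was -0.05, and 90% of genes lay between -1.55 and 1.03. Of these genes 95.6% lay below Malat1, 94.3% below Gm37376, 10.3% below Neat1 and 33.1% below Kcnq1ot1. The median of the 861 long noncoding genes among them was -0.23.

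**Figure D5:**
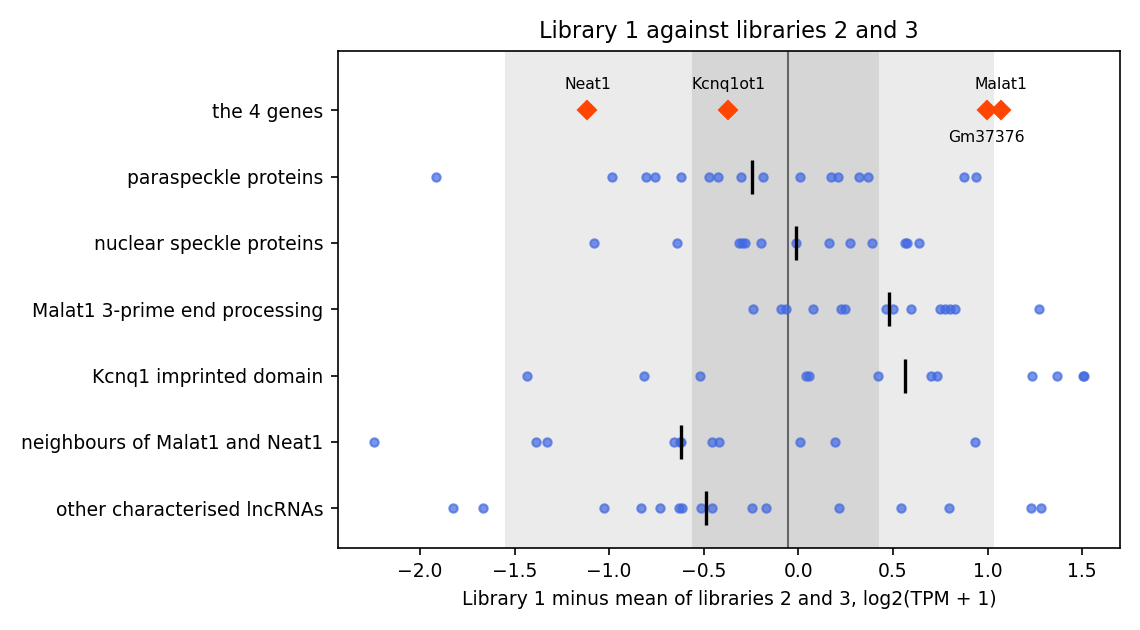
Library 1 minus the mean of libraries 2 and 3 in log2(TPM + 1) for the 4 genes (diamonds) and for each gene with a TPM of at least 1 in every library of 6 gene lists (points, black bar at the list's median). The vertical line is the median over all 11694 such genes, the darker band holds their middle 50% and the lighter band their middle 90%; Malat1 lies at 1.07 and Neat1 at -1.11.

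The RNA of the listed genes for paraspeckle proteins, of the bodies that Neat1 builds, was detected throughout. All 16 genes reached a TPM of 1 in every library, and 15 varied between libraries, 6 higher and 9 lower in library 1, beside 75.8% of all tested genes that varied, 32.9% higher and 40.2% lower. After division by the median overdispersion 5 varied, beside 21.6% of all tested genes, and the median log2 difference was -0.25. Hnrnpk, an RNA-binding protein that favours the long Neat1 form, had a TPM of 2468, 1342 and 1233 in libraries 1, 2 and 3 and varied as Malat1 did, highest in library 1. Ewsr1, a FET family RNA-binding protein, had 1155, 677 and 585, also highest in library 1. Matr3, a nuclear matrix protein, had 274, 363 and 316, lowest in library 1. The core proteins Nono, Sfpq and Pspc1 were looked at after their values were seen. Nono, at 160, 163 and 155, did not pass the test (adjusted p = 0.136), Sfpq stood at 45.9, 176 and 175, far lower in library 1, and Pspc1 at 66.0, 59.5 and 57.3.

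The genes of 13 nuclear speckle proteins, of the bodies in which Malat1 gathers, also reached a TPM of 1 in every library. Of these 12 varied, 5 higher and 7 lower in library 1, against 75.8% of all tested genes. After division by the median overdispersion 6 varied, beside 21.6% of all tested genes. The median log2 difference was -0.01. Srrm2, a scaffold of speckles, had a TPM of 1066, 973 and 930, and is counted as lower in library 1 because its share of the counts was lower there while its TPM was higher. Sf3b1, a subunit of the U2 snRNP, had 495, 620 and 583, lowest in library 1. Hnrnpc, which binds nascent RNA, had 387, 401 and 379 and did not pass (adjusted p = 0.0617).

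RNA of genes for the processing of the Malat1 end was detected too. The list holds RNase P subunits, the tRNA-end enzymes Elac2 and Trnt1, and Mettl16, a methyltransferase known to bind the Malat1 end. All 14 reached a TPM of 1, 13 had enough counts to be tested, and 9 varied, all of them higher in library 1, where 75.8% of all tested genes varied and 32.9% varied with library 1 the highest. The median log2 difference was 0.48. Trnt1, which adds CCA to tRNAs, had a TPM of 253, 157 and 143 in libraries 1, 2 and 3. Pop5, an RNase P protein, had 189, 105 and 111, and Rpp21, another, had 160, 90.8 and 96.2. In these 3 genes, as in Malat1, library 1 was the highest and libraries 2 and 3 lay close together. After division by the median overdispersion 2 of the 13 tested varied, beside 21.6% of all tested genes.

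Of 18 genes in and around the Kcnq1 imprinted domain, 12 reached a TPM of 1 in every library. Of the 12 tested, 10 varied, 7 higher and 3 lower in library 1. Of all tested genes 75.8% varied, 32.9% higher and 40.2% lower. After division by the median overdispersion 4 varied, beside 21.6% of all tested genes. The median log2 difference of those detected was 0.56. Nap1l4, a nucleosome assembly protein gene, had a TPM of 395, 258 and 229. Tspan32, a tetraspanin of blood cells, had 185, 78.3 and 77.7, and Tnfrsf26, a TNF receptor family gene, had 108, 43.5 and 39.2. In all 3, library 1 was the highest, opposite to Kcnq1ot1. The 3 genes called lower, as Kcnq1ot1 was, are named in addition to the 3 highest. They were Osbpl5 (9.80, 18.8 and 17.2), Tnfrsf22 (9.18, 15.4 and 12.0) and Tnfrsf23 (4.87, 13.7 and 16.1). Of the 18 genes, 6 stayed below 1 in every library, among them Phlda2 (0.39, 0.16 and 0.27), Ascl2 (0.84, 0.65 and 0.25) and Slc22a18 (0, 0 and 0.14), with Kcnq1 and Trpm5 listed at 0.

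Of 14 protein-coding neighbours of Malat1 and Neat1 on chromosome 19, 11 reached a TPM of 1 in every library. Of 12 tested, 11 varied, 3 higher and 8 lower in library 1, against 75.8% of all tested genes, with 40.2% called lower. After division by the median overdispersion 6 varied, beside 21.6% of all tested genes. The median log2 difference was -0.62. Rela, a subunit of NF-kappa B, had a TPM of 173, 252 and 224 in libraries 1, 2 and 3, lowest in library 1 like Neat1. Dpf2, a subunit of BAF chromatin remodelers, had 183, 101 and 90.3, highest in library 1 like Malat1. Sipa1, a GTPase activator for Rap1, had 164, 190 and 140, with library 1 between the others in TPM. Ltbp3, Tigd3 and Cdc42ep2 stayed below a TPM of 1 in every library.

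Other well-known long noncoding RNAs stood far below the deposited gene TPM of Malat1. Of 28 listed, 16 reached a TPM of 1 in every library, and of these 13 varied, 3 higher and 10 lower in library 1, beside 75.8% of all tested genes, 40.2% called lower. After division by the median overdispersion 6 varied, beside 21.6% of all tested genes, and the median log2 difference was -0.49. Gas5, a host gene of small nucleolar RNAs, was the highest, at a TPM of 382, 575 and 597, and like Neat1 it was lowest in library 1. Malat1-201 alone, at 151, 81.7 and 109 in libraries 1, 2 and 3, lay below Gas5 in each. The combined Malat1 locus spread over Malat1-201, at 1501, 727 and 784, lay above Gas5 in each. Lncpint, a p53-responsive RNA, had 110, 223 and 229, also lowest in library 1. Mir155hg, the host gene of miR-155, had 168, 69.6 and 67.6, highest in library 1. Another 11 stayed below 1 in every library, among them Xist, Tsix, Meg3, H19 and Miat, whose highest value was 0.08, for Meg3 in library 2. Norad and Oip5os1 were matched through RefSeq synonyms to 2900097C17Rik and 1700020I14Rik.

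With 3 libraries many genes share a profile, so likeness is a description only. The measure was the Euclidean distance of log2(TPM + 1), centred on each gene's mean over the 3 libraries, among protein-coding and long noncoding genes with a mean TPM of at least 10. Genes that overlap the member were left out, so Gm37376 was not a candidate for Malat1. Nearest to Malat1 were Abhd6, a lipase, at a distance of 0.0081, Smc3, a cohesin subunit, at 0.0117, and Bag1, a co-chaperone, at 0.0142. Abhd6 had a TPM of 39.8, 17.9 and 18.8 in libraries 1, 2 and 3. Nearest to Neat1 were Abcc4, a transporter, at 0.0122, Pde4dip, a centrosome and Golgi protein, at 0.0170, and Kdm2b, a histone demethylase, at 0.0180. Nearest to Kcnq1ot1 were Polm, a DNA polymerase, at 0.0058, Riok3, a kinase, at 0.0086, and Ubash3b, a phosphatase that acts in T cell receptor signalling, at 0.0104. The pseudocount of 1 shrinks the differences of Kcnq1ot1, so its nearest genes need not share its fold between libraries. Its TPM was 0.30, 0.66 and 0.70 in libraries 1, 2 and 3, against 8.33, 11.0 and 11.2 for Polm. Within a distance of 0.1 lay 111 genes for Malat1, 127 for Neat1 and, with that limit, 311 for Kcnq1ot1.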

How the data were processed

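Poly(A)-selected RNA of 1 biosample was measured in 3 technical libraries. The authors deposited, on assembly mm10 and GENCODE M21 per the README deposited with each library, gene and transcript tables with expected counts, TPM, FPKM and, for transcripts, the percent of the gene's TPM. The column names are per the file headers, and no source used here gives the quantifier, aligner or strand setting. The authors also deposited whole-number counts on GENCODE M4 for 22457 genes, which hold 0 of the 4 members and were not used further. Of 81881 rows in the M21 gene tables, 26345 without an Ensembl gene identifier were left out, and expected counts were rounded for testing.

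Homogeneity was tested by Pearson's chi-square over genes with at least 30 counts (scipy 1.17.1, Benjamini-Hochberg threshold 0.05), and the code was tested on simulated data. With 1 group, edgeR 4.0.16 gave only TMM scaling factors. A pseudocount of 1 was used for log2 values, and intervals are 95% Wilson intervals. Alternatives were TMM scaling, other count and TPM minimums, other pseudocounts, FPKM, division by the median overdispersion, the combined locus and leaving out each library.

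Genes named are the 4 members with every transcript, genes that overlap them, the 3 most alike to each of Malat1, Neat1 and Kcnq1ot1, and of each gene list the 3 highest by mean TPM and up to 5 below a TPM of 1. Exceptions are named in the text. The members and the lists were chosen with earlier results of these data known. Results of 2 further marker lists are not reported here.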

Additional observations from a re-analysis of the deposited data

How the results depend on the processing

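Of 71 alternatives to the reported values, 59 stayed within 1.5 times a count or within 1 SD of a level, a wide margin for the ratio of Malat1 to Neat1, and no log2 difference changed its sign. The level of Malat1, a mean TPM of 6430, moved to 1004 when the counts of Malat1 and Gm37376 were spread over Malat1-201 and to 114 for Malat1-201 alone, an alternative chosen after seeing the data. Its ratio to Neat1, a mean of 25.3, went to 4.29 in expected counts, to 3.91 for the combined locus and to 0.439, which turns the order of the 2 genes, for Malat1-201 against Neat1-202, also chosen after seeing the data, and leaving out 1 library gave 11.6 (without library 1) to 32.7. Neat1, at a mean TPM of 335, was 200.2 in FPKM and 199 in TMM-scaled CPM per kilobase, which are other units. In place of the share of TPM, the share of expected counts was 77.0% for Malat1-203 and 88.5% for Neat1-202. With TMM-scaled CPM, the log2 difference of library 1 was 1.13 for Malat1, 1.14 for Gm37376 and -1.02 for Kcnq1ot1, and the median of all detected genes shifted from -0.05 to 0.06. For Kcnq1ot1 it was -0.96 with a pseudocount of 0.1 and -0.10 with 5, by construction of the scale at a TPM below 1. The count of members that varied, 4, fell to 3 without library 1 and with division by the median overdispersion, and was 4 without library 2 or 3. The alternatives on the M4 counts were not run, because those tables hold 0 of the members. No paired analysis was possible because the libraries form 1 group. Depth limits Kcnq1ot1 most, at 295 to 675 counts a library.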
